A study of Saccharomyces cerevisiae with 18 samples.

Results

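The genes described here are 30 genes of Saccharomyces cerevisiae for sulfate uptake and reduction, for the making of methionine, cysteine and S-adenosylmethionine, and for the regulation of that pathway. They were taken from a list of gene names, with 1 probe set per gene on the array, and all 30 were found among the 5449 genes measured. By role they comprised 2 sulfate permease genes, 7 genes of sulfate reduction, 6 of methionine synthesis, 4 of transsulfuration, 6 of S-adenosylmethionine synthesis, uptake and use, and 5 regulators. The study hybridized RNA from 18 cultures to Affymetrix yeast arrays, with 3 arrays in each of 6 groups. All 6 groups were snf1 deletion strains that carried 1 plasmid. The Snf1 strain, the reference, carried HA-Snf1. The Alpha1 strain carried HA-Alpha1, in which the catalytic domain came from AMPK Alpha1 and the regulatory domain from Snf1, and the T210A strain carried HA-T210A, a Snf1 whose phosphorylated activation site Thr210 was replaced by Ala. Each strain was sampled at 15 to 20 g/L glucose (high) and at 5 g/L (low), from aerobic 1 litre bioreactors at 30 °C and pH 5.0 that had started with 40 g/L glucose. The labels call the 3 arrays of a group biological replicates and do not name the medium or its sulfur source.

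Yeast takes up sulfate through the permeases Sul1 and Sul2, activates it with ATP and reduces it through sulfite to sulfide. Sulfide joins O-acetylhomoserine to give homocysteine, which is methylated to methionine or passed through cystathionine to cysteine, and methionine is converted to S-adenosylmethionine, the main methyl donor of the cell. Many of these genes are activated by Met4, which is brought to their promoters by Cbf1 or by Met31 and Met32 with the help of Met28, and is held in check by the ubiquitin ligase that contains Met30. Snf1 is the yeast relative of mammalian AMP-activated protein kinase (AMPK) and is active when glucose is scarce.

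Most genes of the pathway were lower at low than at high glucose in the Snf1 strain, with all 7 reduction genes called lower, while in T210A its genes split into some that fell and others that rose. A gene is called here when limma's moderated test gave a Benjamini-Hochberg adjusted p under 0.05 over all 5449 genes. In Snf1, 19 of the 30 genes fell and 1, SUL1, rose, where 67.3% of all genes were called, 34.7% higher and 32.7% lower. In Alpha1, 11 fell and 4 rose, against 63.5% of all genes called (34.3% higher, 29.2% lower). In T210A, 15 fell and 9 rose, against 70.5% of all genes called (37.7% higher, 32.8% lower). The share called was thus 66.7% in Snf1, 50.0% in Alpha1 and 80.0% in T210A, which in Snf1 is the background share, with most of the calls in 1 direction. The median difference of the 30 genes was -0.58 on the log2 scale in Snf1, -0.19 in Alpha1 and -0.28 in T210A, where the medians over all genes were 0.00, 0.03 and 0.04.

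Values are log2 signals as deposited, listed in the order of replicates 1, 2 and 3, and differences are log2 ± SE of the model with n = 3 arrays a group. Signals of different genes are not comparable as amounts, since each probe set has its own brightness. As a check of the labels, the SNF1 probe set at high glucose read 7.06 to 7.31 in Snf1, 6.93 to 7.25 in T210A and 12.30 to 12.46 in Alpha1. It sets Alpha1 apart but does not tell Snf1 from T210A at high glucose, where their arrays overlapped. At low glucose it was 1.67-fold higher in T210A than in Snf1 (limma adjusted p = 0.000324). The probe set may read plasmid transcripts and does not test the deletion. None of the 30 genes had a group mean under 3.25, the line 1 log2 unit above the mean lowest signal of the arrays. In Alpha1 at low glucose the median SD of a gene over all genes was 0.22, against 0.10 to 0.13 in the other groups, and for the 7 reduction genes it was 0.54. The T210A arrays also had higher signals for genes of chromosome VIII, a chromosome on which 0 of the 30 genes lie. The median difference from Snf1 over its 261 genes was 0.74 at high and 0.57 at low glucose. The T210A groups carry both the allele and this shift. Effects of the allele and of the shift on other genes cannot be told apart in comparisons of T210A with the other strains.

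**Figure D1:**
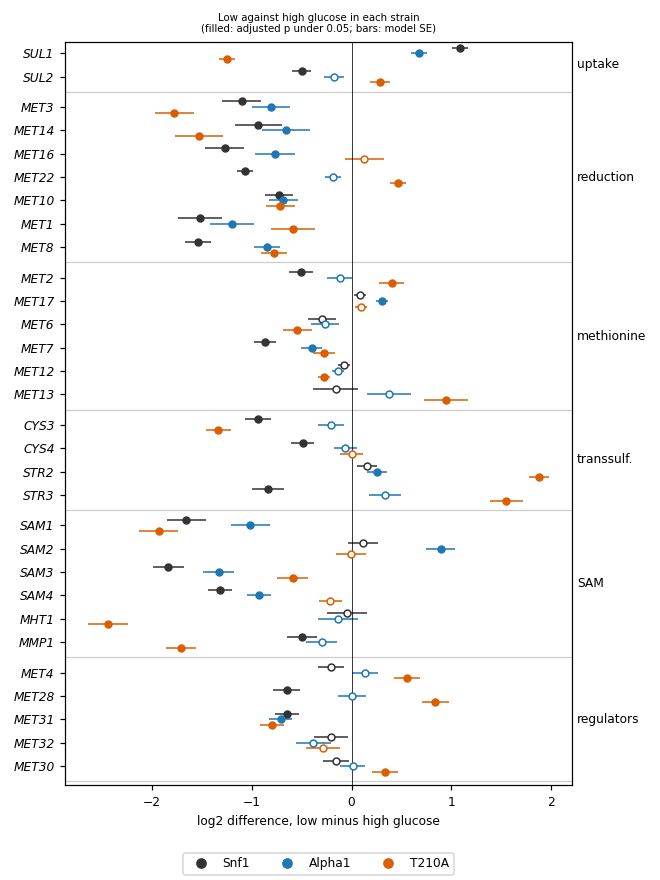
Log2 difference between low and high glucose (x axis, low minus high) for each of the 30 genes (y axis, by role) in Snf1 (black), Alpha1 (blue) and T210A (orange), with the model SE as bars and filled points for genes called. The reduction genes lie left of 0 in Snf1, from -1.54 to -0.73, while T210A points reach from -2.44 for MHT1 to 1.88 for STR2.

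The sulfate permease genes moved against each other in Snf1 and in T210A, and in opposite ways in these strains. SUL1 (YBR294W) encodes a high-affinity sulfate permease. SUL1 read 9.51, 9.65 and 9.54 in Snf1 at high glucose and 10.63, 10.70 and 10.63 at low glucose. In Alpha1 the SUL1 values were 9.80, 9.66 and 9.60 at high and 10.51, 10.22 and 10.36 at low glucose. T210A gave SUL1 signals of 8.78, 8.85 and 8.59 at high and 7.48, 7.57 and 7.44 at low glucose. At each glucose level the T210A arrays lay below those of the other strains, and low glucose lay above high glucose without overlap in Snf1 and Alpha1 and below it in T210A. SUL1 thus rose 2.12-fold in Snf1 (1.08 ± 0.08, adjusted p = 3.84e-08) and 1.6-fold in Alpha1 (0.68 ± 0.08, adjusted p = 6.85e-06), and fell 2.37-fold in T210A (-1.24 ± 0.08, adjusted p = 1.58e-08). SUL2 (YLR092W) encodes the other high-affinity sulfate permease. SUL2 read 9.24, 9.41 and 9.13 in Snf1 at high glucose and 8.70, 8.83 and 8.75 at low glucose. In Alpha1 the SUL2 values were 9.20, 9.32 and 9.22 at high and 9.15, 8.91 and 9.16 at low glucose. T210A gave SUL2 signals of 9.12, 9.25 and 8.87 at high and 9.34, 9.33 and 9.43 at low glucose. In Snf1 and Alpha1 the arrays at low glucose lay below those at high glucose, and in T210A they lay above. SUL2 fell 1.41-fold in Snf1 (-0.50 ± 0.10, adjusted p = 0.000425) and rose 1.22-fold in T210A (0.29 ± 0.10, adjusted p = 0.0183), and its difference in Alpha1 was -0.17 ± 0.10, adjusted p = 0.137. The SUL2 call in T210A ended without T210A high glucose replicate 3 (0.0998) or T210A low glucose replicate 3 (0.0626), adjusted p in parentheses, and with quantile normalization (adjusted p = 0.0551), with arrays centred on their medians (adjusted p = 0.16) or when only the T210A arrays were fitted (adjusted p = 0.0553).

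All 7 reduction genes fell at low glucose in Snf1 and their arrays did not overlap, where 36.6% of all genes lay lower without overlap. In Alpha1, 6 of the 7 were called lower, beside 29.2% of all genes. In T210A, 5 fell, MET22 rose, and MET16 was not called, beside 32.8% of all genes called lower and 37.7% higher. MET3 (YJR010W) encodes ATP sulfurylase, which activates sulfate. MET3 read 10.44, 10.54 and 10.59 in Snf1 at high glucose and 9.36, 9.48 and 9.42 at low glucose. In Alpha1 the MET3 values were 10.25, 10.42 and 10.50 at high and 10.19, 9.11 and 9.46 at low glucose. T210A gave MET3 signals of 10.50, 10.44 and 10.34 at high and 8.60, 8.83 and 8.54 at low glucose. The T210A arrays at low glucose were the lowest of the 18, and no low-glucose array overlapped with the high-glucose arrays of its strain. MET3 was 2.15-fold lower at low glucose in Snf1 (-1.10 ± 0.19, adjusted p = 0.000161), 1.75-fold lower in Alpha1 (-0.80 ± 0.19, adjusted p = 0.00228) and 3.42-fold lower in T210A (-1.77 ± 0.19, adjusted p = 1.98e-06). MET14 (YKL001C), whose product phosphorylates the activated sulfate, also fell. MET14 read 11.18, 11.17 and 11.45 in Snf1 at high glucose and 10.54, 10.08 and 10.39 at low glucose. In Alpha1 the MET14 values were 11.49, 11.25 and 11.30 at high and 11.32, 10.15 and 10.62 at low glucose. T210A gave MET14 signals of 11.33, 11.18 and 11.81 at high and 10.00, 9.87 and 9.87 at low glucose. Low-glucose arrays lay below high-glucose arrays in Snf1 and T210A, and overlapped with them in Alpha1 through replicate 1. The differences were -0.93 ± 0.24, adjusted p = 0.00333 in Snf1, -0.65 ± 0.24, adjusted p = 0.0285 in Alpha1 and -1.53 ± 0.24, adjusted p = 6.32e-05 in T210A. The Alpha1 call for MET14 ended without Alpha1 high glucose replicate 1 (0.0861), Alpha1 high glucose replicate 3 (0.0522), Alpha1 low glucose replicate 2 (0.146) or Alpha1 low glucose replicate 3 (0.0748), adjusted p in parentheses.

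MET16 (YPR167C) and MET22 (YOL064C) act at the next steps, the first encoding the reductase that releases sulfite and the second the phosphatase that clears the by-product of that reaction. MET16 read 9.97, 9.99 and 10.12 in Snf1 at high glucose and 8.80, 8.74 and 8.73 at low glucose. In Alpha1 the MET16 values were 10.24, 10.01 and 10.15 at high and 9.91, 8.76 and 9.43 at low glucose. T210A gave MET16 signals of 10.07, 9.94 and 10.06 at high and 10.18, 10.02 and 10.25 at low glucose. Snf1 arrays at low glucose stood below all others except 1 of Alpha1, and the T210A arrays at both levels overlapped. MET16 fell 2.41-fold in Snf1 (-1.27 ± 0.20, adjusted p = 5.37e-05) and 1.7-fold in Alpha1 (-0.77 ± 0.20, adjusted p = 0.00373), while the T210A difference was 0.13 ± 0.20, adjusted p = 0.589. MET22 read 10.86, 10.98 and 11.01 in Snf1 at high glucose and 9.83, 9.86 and 9.95 at low glucose. In Alpha1 the MET22 values were 10.93, 10.95 and 11.00 at high and 10.92, 10.55 and 10.86 at low glucose. T210A gave MET22 signals of 10.89, 10.90 and 10.98 at high and 11.32, 11.39 and 11.47 at low glucose. The lowest 3 of the 18 MET22 values were those of Snf1 at low glucose and the highest 3 those of T210A at low glucose. MET22 fell 2.1-fold in Snf1 (-1.07 ± 0.08, adjusted p = 3.45e-08) and rose 1.38-fold in T210A (0.47 ± 0.08, adjusted p = 0.000141). In Alpha1 the arrays did not overlap either, with low glucose below, but the MET22 difference was not called, -0.18 ± 0.08, adjusted p = 0.0602, and with the replicate number as a block its adjusted p was 0.04.

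**Figure D2:**
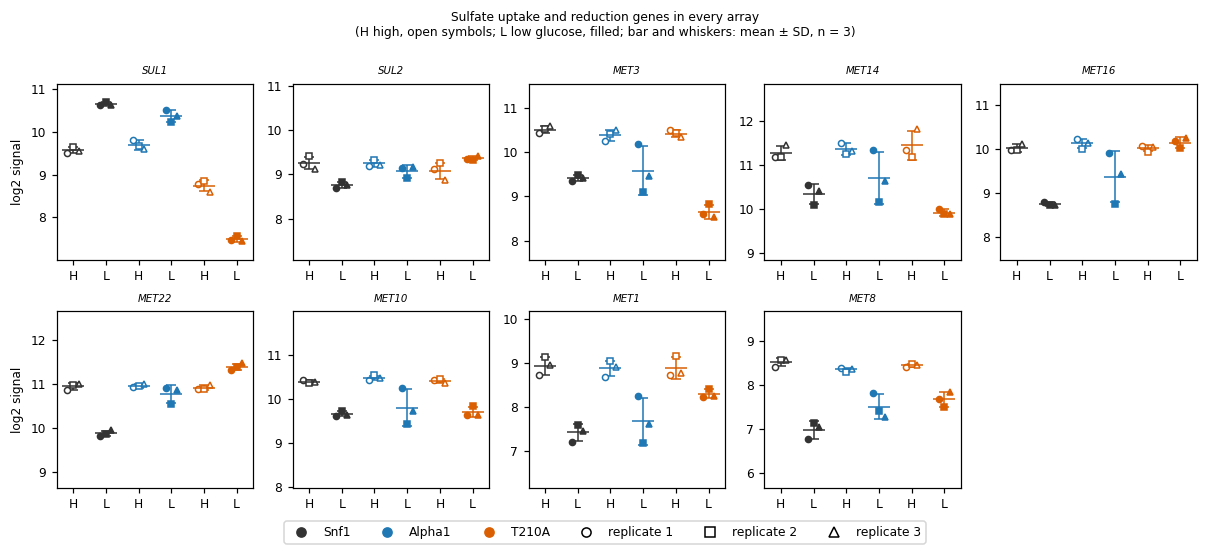
Log2 signal (y axis, a scale per gene) of the 9 uptake and reduction genes in every array at high (H, open) and low (L, filled) glucose for Snf1, Alpha1 and T210A, with a symbol for each replicate number, and the mean ± SD (n = 3). SUL1 falls to about 7.50 in T210A at low glucose, and replicate 1 (circle) of Alpha1 at low glucose is the highest of its group in all 7 reduction genes.

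MET1 (YKR069W) and MET8 (YBR213W) make siroheme, the cofactor of sulfite reductase. MET1 read 8.73, 9.14 and 8.95 in Snf1 at high glucose and 7.22, 7.59 and 7.47 at low glucose. In Alpha1 the MET1 values were 8.68, 9.04 and 8.92 at high and 8.25, 7.18 and 7.61 at low glucose. T210A gave MET1 signals of 8.73, 9.17 and 8.77 at high and 8.23, 8.42 and 8.26 at low glucose. No low-glucose array reached the high-glucose range of its own strain. MET1 was 2.85-fold lower in Snf1 (-1.51 ± 0.22, adjusted p = 2.98e-05), 2.29-fold lower in Alpha1 (-1.20 ± 0.22, adjusted p = 0.000299) and 1.5-fold lower in T210A (-0.58 ± 0.22, adjusted p = 0.029), the last not being called without T210A high glucose replicate 2 (0.119), T210A low glucose replicate 1 (0.0753) or T210A low glucose replicate 3 (0.0698), adjusted p in parentheses. MET8 read 8.42, 8.58 and 8.57 in Snf1 at high glucose and 6.77, 7.14 and 7.05 at low glucose. In Alpha1 the MET8 values were 8.39, 8.31 and 8.37 at high and 7.83, 7.42 and 7.28 at low glucose. T210A gave MET8 signals of 8.42, 8.49 and 8.46 at high and 7.69, 7.51 and 7.84 at low glucose. The Snf1 arrays at low glucose were the 3 lowest. MET8 was 2.9-fold lower in Snf1 (-1.54 ± 0.13, adjusted p = 1.11e-07), 1.8-fold lower in Alpha1 (-0.85 ± 0.13, adjusted p = 5.47e-05) and 1.71-fold lower in T210A (-0.77 ± 0.13, adjusted p = 0.000105). MET10, which encodes a sulfite reductase subunit, had nearly the same difference in the 3 strains, -0.73 ± 0.14 in Snf1, -0.68 ± 0.14 in Alpha1 and -0.71 ± 0.14 in T210A, and was called in each. When only the Alpha1 arrays were fitted, 4 of the 6 reduction calls in Alpha1 ended (MET10, MET14, MET16 and MET3, adjusted p from 0.0537 to 0.147), and 9 of the 30 genes were called in place of 15.

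In Alpha1 at low glucose the reduction genes differed between arrays more than in any other group, and in 1 direction. Replicate 1 was the highest of the 3 arrays for 7 of 7 reduction genes and for 21 of the 30 genes in all, whereas it was the highest for 22.1% of all genes and the lowest for 51.5%. Its median deviation from the group mean was 0.55 over the reduction genes and -0.10 over all genes. Replicate 2 was the lowest for 6 of the 7. MET3, for example, spanned 9.11 to 10.19 within the group. Without replicate 1 the count of genes called between low and high glucose in Alpha1 was 19, without replicate 2 it was 17 and without replicate 3 it was 14. Without replicate 1, MET22, MET6, MHT1, MMP1 and MET32 were called and STR2 was not. Leaving out replicate 2 added MET12, CYS3 and STR3 and ended MET14, and leaving out replicate 3 added MET22 and ended MET14 and STR2. Against Snf1 at low glucose the counts without replicates 1, 2 and 3 in turn were 13, 15 and 15, and against T210A they were 22, 19 and 19.

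Of the 6 methionine genes, 2 were called between the glucose levels in Snf1, 2 in Alpha1 and 5 in T210A. These are shares of 33.3%, 33.3% and 83.3%, beside 67.3%, 63.5% and 70.5% of all genes. MET17, for the enzyme that joins sulfide to O-acetylhomoserine, stayed between 11.84 and 12.17 in its group means, and was called only in Alpha1 (0.31 ± 0.06, adjusted p = 0.000589). MET6 encodes methionine synthase, and its differences were -0.30 ± 0.14, adjusted p = 0.0752 in Snf1, -0.27 ± 0.14, adjusted p = 0.116 in Alpha1 and -0.54 ± 0.14, adjusted p = 0.0035 in T210A. MET2, which encodes the enzyme that acetylates homoserine, fell in Snf1 (-0.51 ± 0.12, adjusted p = 0.00197) and rose in T210A (0.40 ± 0.12, adjusted p = 0.00924). The methylenetetrahydrofolate reductases supply the methyl group of methionine. MET13, for the main one, read 8.06, 7.99 and 7.65 in T210A at high glucose and 8.69, 9.12 and 8.71 at low glucose, without overlap, and rose 1.92-fold (0.94 ± 0.22, adjusted p = 0.00174). Its differences were -0.16 ± 0.22 in Snf1 and 0.38 ± 0.22 in Alpha1, where it was not called. MET12, for the other reductase, differed by -0.28 ± 0.06, adjusted p = 0.00112 in T210A, and with the replicate block it passed in Alpha1 too (-0.14, adjusted p = 0.0149, against 0.0625 without the block). MET7, which encodes a folate-modifying synthetase, fell in Snf1 (-0.86 ± 0.11), Alpha1 (-0.40 ± 0.11) and T210A (-0.28 ± 0.11). Its Alpha1 call ended when only the Alpha1 arrays were fitted (adjusted p = 0.0668), and its T210A call ended without T210A high glucose replicate 1 (0.0707), T210A high glucose replicate 2 (0.103), T210A low glucose replicate 1 (0.105) or T210A low glucose replicate 3 (0.0754), adjusted p in parentheses.

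At low against high glucose, 3 of the 4 transsulfuration genes were called in Snf1, 1 in Alpha1 and 3 in T210A. The shares were 75.0%, 25.0% and 75.0%, beside 67.3%, 63.5% and 70.5% of all genes. STR2 and STR3 encode enzymes of the cystathionine route that runs from cysteine to homocysteine, and CYS4 and CYS3 those of the reverse route to cysteine. STR3 read 7.57, 7.72 and 7.63 in Snf1 at high glucose and 6.51, 6.99 and 6.92 at low glucose. In Alpha1 the STR3 values were 7.61, 8.19 and 8.16 at high and 8.50, 8.12 and 8.34 at low glucose. T210A gave STR3 signals of 7.98, 8.12 and 7.86 at high and 9.38, 9.66 and 9.57 at low glucose. The 3 T210A arrays at low glucose were the highest of all 18 and the 3 Snf1 arrays at low glucose the lowest. STR3 (YGL184C) fell 1.78-fold in Snf1 (-0.84 ± 0.16, adjusted p = 0.000398), rose 2.93-fold in T210A (1.55 ± 0.16, adjusted p = 1.44e-06), and was not called in Alpha1 (0.33 ± 0.16, adjusted p = 0.0897). STR2 read 7.44, 7.23 and 7.41 in Snf1 at high glucose and 7.52, 7.55 and 7.48 at low glucose. In Alpha1 the STR2 values were 7.27, 7.34 and 7.40 at high and 7.75, 7.31 and 7.71 at low glucose. T210A gave STR2 signals of 7.14, 7.28 and 7.21 at high and 9.00, 9.19 and 9.08 at low glucose. Outside T210A at low glucose every STR2 value lay between 7.14 and 7.75. STR2 (YJR130C) rose 3.68-fold in T210A (1.88 ± 0.10, adjusted p = 2.02e-09), and its differences were 0.16 ± 0.10, adjusted p = 0.176 in Snf1 and 0.25 ± 0.10, adjusted p = 0.0368 in Alpha1, the Alpha1 call ending without Alpha1 high glucose replicate 1 (0.109), Alpha1 high glucose replicate 2 (0.0716), Alpha1 low glucose replicate 1 (0.153) or Alpha1 low glucose replicate 3 (0.14), adjusted p in parentheses. It also ended when only the Alpha1 arrays were fitted (0.178), with quantile normalization (0.424), with centred arrays (0.268) and with array weights (0.0517).

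CYS3 (YAL012W), for cystathionine gamma-lyase, went the other way from STR2 and STR3 in T210A. CYS3 read 11.07, 11.32 and 11.17 in Snf1 at high glucose and 10.09, 10.39 and 10.28 at low glucose. In Alpha1 the CYS3 values were 10.89, 11.29 and 11.28 at high and 10.86, 11.18 and 10.81 at low glucose. T210A gave CYS3 signals of 11.29, 11.46 and 11.23 at high and 9.95, 10.12 and 9.92 at low glucose. Low-glucose arrays lay below high-glucose arrays in Snf1 and T210A and overlapped with them in Alpha1. CYS3 fell 1.91-fold in Snf1 (-0.93 ± 0.13, adjusted p = 1.81e-05) and 2.52-fold in T210A (-1.33 ± 0.13, adjusted p = 6.57e-07), and in Alpha1 the difference was -0.21 ± 0.13, adjusted p = 0.181, with an adjusted p of 0.0338 under the replicate block. CYS4, for cystathionine beta-synthase, fell in Snf1 alone (-0.49 ± 0.11, adjusted p = 0.00184), its differences being -0.06 ± 0.11 in Alpha1 and 0.00 ± 0.11 in T210A.

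**Figure D3:**
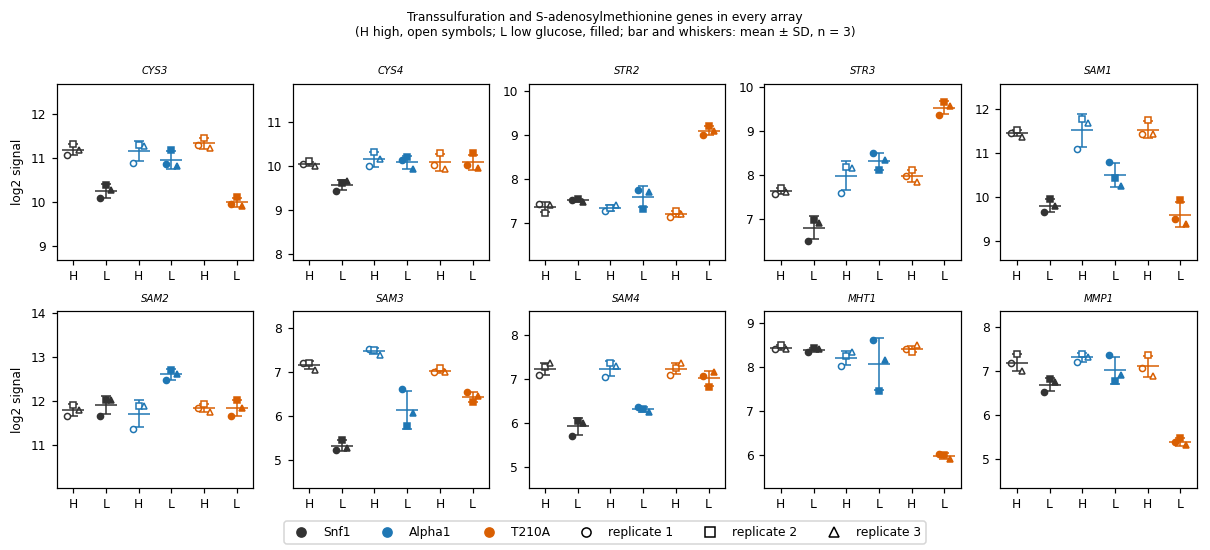
Log2 signal (y axis, a scale per gene) of the 4 transsulfuration and 6 S-adenosylmethionine genes in every array at high (H, open) and low (L, filled) glucose for the 3 strains, with a symbol for each replicate number, and the mean ± SD (n = 3). In T210A at low glucose STR2 and STR3 are at their highest and MHT1 and MMP1 at their lowest.

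The S-adenosylmethionine synthetase genes SAM1 (YLR180W) and SAM2 (YDR502C) encode nearly identical enzymes, so that their probe sets may read each other's transcripts, which was not tested. SAM1 read 11.46, 11.51 and 11.37 in Snf1 at high glucose and 9.65, 9.95 and 9.79 at low glucose. In Alpha1 the SAM1 values were 11.09, 11.76 and 11.68 at high and 10.80, 10.44 and 10.25 at low glucose. T210A gave SAM1 signals of 11.42, 11.75 and 11.43 at high and 9.49, 9.93 and 9.39 at low glucose. In each strain all low-glucose arrays lay below the high-glucose ones. SAM1 was 3.14-fold lower in Snf1 (-1.65 ± 0.19, adjusted p = 3.52e-06), 2.02-fold lower in Alpha1 (-1.01 ± 0.19, adjusted p = 0.000397) and 3.82-fold lower in T210A (-1.93 ± 0.19, adjusted p = 9.12e-07). SAM2 did not fall with it, with group means of 11.80 (SD 0.13) and 11.91 (SD 0.21) in Snf1 and 11.85 (SD 0.09) and 11.84 (SD 0.18) in T210A at high and low glucose. In Alpha1 it rose 1.85-fold, from 11.36, 11.90 and 11.90 to 12.48, 12.72 and 12.63 (0.89 ± 0.15, adjusted p = 0.000133).

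SAM3 (YPL274W) encodes the S-adenosylmethionine permease. SAM3 read 7.22, 7.20 and 7.06 in Snf1 at high glucose and 5.23, 5.47 and 5.27 at low glucose. In Alpha1 the SAM3 values were 7.53, 7.51 and 7.40 at high and 6.63, 5.77 and 6.07 at low glucose. T210A gave SAM3 signals of 7.00, 7.09 and 7.01 at high and 6.54, 6.33 and 6.45 at low glucose. The 6 SAM3 values of each strain separated by glucose level. SAM3 fell 3.56-fold in Snf1 (-1.83 ± 0.15, adjusted p = 1.23e-07), the largest change of the 30 genes in that strain, 2.51-fold in Alpha1 (-1.33 ± 0.15, adjusted p = 4.72e-06) and 1.51-fold in T210A (-0.59 ± 0.15, adjusted p = 0.00372). SAM4, for a homocysteine methyltransferase that uses S-adenosylmethionine, fell in Snf1 (-1.32 ± 0.12, adjusted p = 2.47e-07) and Alpha1 (-0.93 ± 0.12, adjusted p = 1.19e-05) and differed by -0.21 ± 0.12, adjusted p = 0.125 in T210A. MHT1 (YLL062C) and MMP1 (YLL061W) encode a methyltransferase and a permease for S-methylmethionine, a plant compound that yeast can use as a sulfur source. MHT1 read 8.41, 8.49 and 8.41 in Snf1 at high glucose and 8.34, 8.43 and 8.40 at low glucose. In Alpha1 the MHT1 values were 8.03, 8.24 and 8.34 at high and 8.61, 7.45 and 8.15 at low glucose. T210A gave MHT1 signals of 8.40, 8.35 and 8.49 at high and 6.03, 5.99 and 5.91 at low glucose. The T210A arrays at low glucose were the only ones under 7. MHT1 fell 5.41-fold in T210A (-2.44 ± 0.20, adjusted p = 1.28e-07), and it differed by -0.05 ± 0.20, adjusted p = 0.875 in Snf1 and -0.13 ± 0.20, adjusted p = 0.595 in Alpha1. The Alpha1 value rested on single arrays, being -0.41 (adjusted p = 0.0311) without low glucose replicate 1 and 0.18 (adjusted p = 0.197) without replicate 2. MMP1 read 7.19, 7.39 and 7.00 in Snf1 at high glucose and 6.53, 6.81 and 6.75 at low glucose. In Alpha1 the MMP1 values were 7.20, 7.39 and 7.32 at high and 7.35, 6.77 and 6.91 at low glucose. T210A gave MMP1 signals of 7.06, 7.35 and 6.88 at high and 5.38, 5.48 and 5.31 at low glucose. Again only the T210A arrays at low glucose lay under 6. MMP1 fell 3.26-fold in T210A (-1.71 ± 0.15, adjusted p = 3.16e-07) and 1.41-fold in Snf1 (-0.50 ± 0.15, adjusted p = 0.0105, and 0.0522 without Snf1 high glucose replicate 2), and its Alpha1 difference was -0.30 ± 0.15, adjusted p = 0.104, or -0.47 (adjusted p = 0.0103) without low glucose replicate 1.

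Of the regulators, the cofactor gene MET28 had its highest group mean in T210A and its lowest in Snf1, both at low glucose, as did MET4 and MET30. The DNA-binding protein gene MET31 did not separate the strains. Between T210A and Snf1 at low glucose 3 of the 5 regulators were called, all higher in T210A. That is a share of 60.0%, beside 56.3% of all genes called and 29.7% called higher. MET28 (YIR017C) encodes a leucine zipper protein that stabilizes Met4 on DNA. MET28 read 8.53, 8.56 and 8.87 in Snf1 at high glucose and 7.85, 7.96 and 8.19 at low glucose. In Alpha1 the MET28 values were 8.62, 8.38 and 8.62 at high and 8.82, 8.32 and 8.48 at low glucose. T210A gave MET28 signals of 8.43, 8.31 and 8.36 at high and 9.19, 9.06 and 9.38 at low glucose. The T210A arrays at low glucose were the highest and the Snf1 arrays at low glucose the lowest. MET28 fell 1.57-fold in Snf1 (-0.65 ± 0.14, adjusted p = 0.000763), rose 1.79-fold in T210A (0.84 ± 0.14, adjusted p = 8.98e-05) and had equal means in Alpha1 (difference 0.00 ± 0.14, adjusted p = 1). MET31 read 6.54, 6.56 and 6.52 in Snf1 at high glucose and 5.69, 5.85 and 6.15 at low glucose. In Alpha1 the MET31 values were 6.60, 6.39 and 6.55 at high and 5.62, 5.85 and 5.94 at low glucose. T210A gave MET31 signals of 6.46, 6.63 and 6.61 at high and 5.77, 5.60 and 5.94 at low glucose. All low-glucose values lay below all high-glucose values. MET31 (YPL038W) fell by 0.65 ± 0.12 on the log2 scale in Snf1, 0.71 ± 0.12 in Alpha1 and 0.80 ± 0.12 in T210A, and was called in each. MET32 read 7.29, 7.16 and 7.48 in Snf1 at high glucose and 7.08, 7.10 and 7.14 at low glucose. In Alpha1 the MET32 values were 7.43, 7.08 and 7.34 at high and 7.34, 6.45 and 6.91 at low glucose. T210A gave MET32 signals of 7.29, 7.18 and 7.29 at high and 7.09, 6.77 and 7.04 at low glucose. The glucose levels overlapped in Alpha1 alone, where replicate 1 at low glucose lay within the high-glucose range. MET32 (YDR253C), for the protein related to Met31, was called in none of the strains (adjusted p = 0.311, 0.0676 and 0.155 in Snf1, Alpha1 and T210A), and under the replicate block it passed in Alpha1 (adjusted p = 0.0217).

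MET4 (YNL103W) encodes the activator itself. MET4 read 7.63, 7.53 and 7.36 in Snf1 at high glucose and 7.32, 7.41 and 7.18 at low glucose. In Alpha1 the MET4 values were 7.91, 7.35 and 7.45 at high and 7.82, 7.65 and 7.64 at low glucose. T210A gave MET4 signals of 7.50, 7.47 and 7.31 at high and 8.04, 8.04 and 7.86 at low glucose. In T210A the low-glucose arrays lay above the high-glucose ones, and in the other strains the levels overlapped. MET4 rose 1.47-fold in T210A (0.55 ± 0.13, adjusted p = 0.00154), and it differed by -0.20 ± 0.13, adjusted p = 0.176 in Snf1 and 0.13 ± 0.13, adjusted p = 0.383 in Alpha1. MET30 (YIL046W), for the F-box protein that marks Met4, gave a like picture. MET30 read 7.01, 7.46 and 7.28 in Snf1 at high glucose and 6.88, 7.23 and 7.18 at low glucose. In Alpha1 the MET30 values were 7.04, 7.19 and 7.27 at high and 6.99, 7.34 and 7.20 at low glucose. T210A gave MET30 signals of 7.23, 7.48 and 7.29 at high and 7.58, 7.73 and 7.69 at low glucose. The T210A values at low glucose were the 3 highest of the 18. MET30 rose 1.26-fold in T210A (0.33 ± 0.13, adjusted p = 0.0302), a call that ended without T210A high glucose replicate 1 (0.101), T210A high glucose replicate 3 (0.077), T210A low glucose replicate 2 (0.085) or T210A low glucose replicate 3 (0.0702), adjusted p in parentheses. Its differences were -0.16 ± 0.13, adjusted p = 0.3 in Snf1, with an adjusted p of 0.0391 under the replicate block, and 0.01 ± 0.13, adjusted p = 0.977 in Alpha1.

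**Figure D4:**
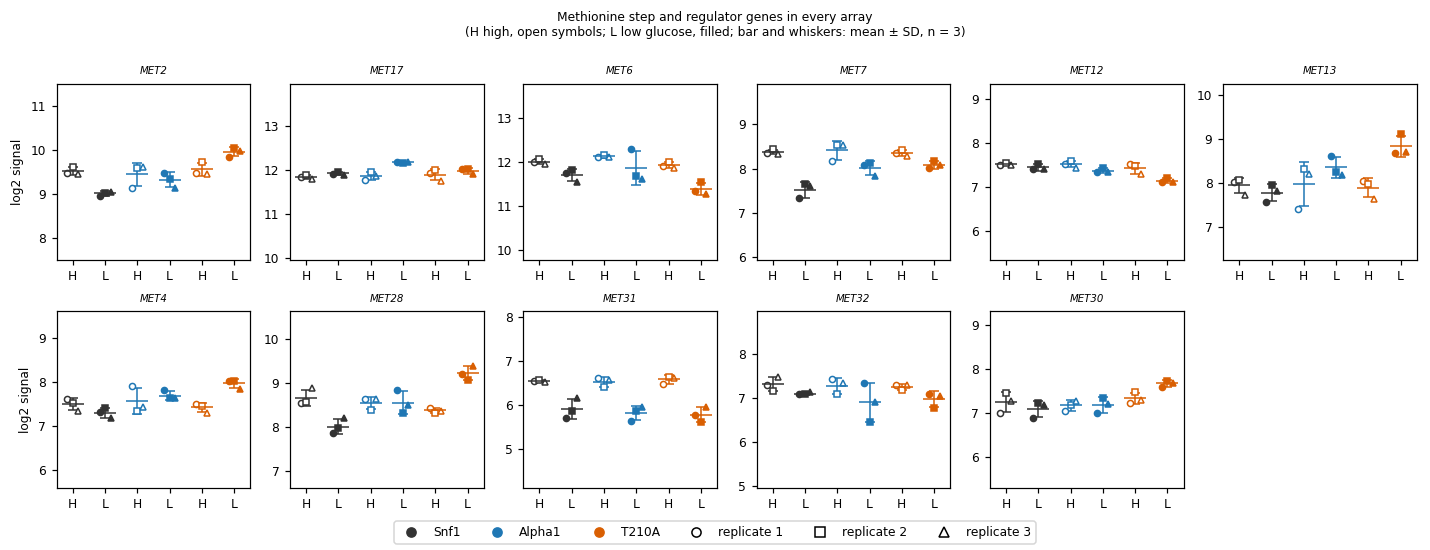
Log2 signal (y axis, a scale per gene) of the 6 methionine genes and 5 regulator genes in every array at high (H, open) and low (L, filled) glucose for the 3 strains, with a symbol for each replicate number, and the mean ± SD (n = 3). MET31 falls in each strain, while MET28, MET4 and MET13 are highest in T210A at low glucose.

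At high glucose SUL1 was the one gene of the 30 called between any pair of strains. Between Alpha1 and Snf1 0 of the 30 genes were called by limma, with differences from -0.23 to 0.34, where 0.918% of all genes were called, 0.312% higher and 0.606% lower. An unadjusted p under 0.05 was reached by 0 of the 30, and with array weights 1 gene was called. SUL1 was the gene called between T210A and Snf1, 1.78-fold lower in T210A (-0.83 ± 0.08, adjusted p = 3.57e-05), where 4.18% of all genes were called, 3.56% higher and 0.624% lower. It was also the gene called between Alpha1 and T210A, 1.93-fold higher in Alpha1 (0.95 ± 0.08, adjusted p = 1.02e-05), where 6.31% of all genes were called, 1.5% higher and 4.81% lower. The T210A arrays at high glucose read 8.78, 8.85 and 8.59 for SUL1, all below the 6 arrays of the other strains at that level.

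At low glucose the strains differed widely, with 21 of the 30 genes called between T210A and Snf1 and 16 between Alpha1 and Snf1. Between T210A and Snf1, 16 of the 30 genes were higher in T210A and 5 lower, against 56.3% of all genes called (29.7% higher, 26.5% lower). SUL1 was 8.91-fold lower in T210A (-3.15 ± 0.08, adjusted p = 6.31e-12), MHT1 5.32-fold lower (-2.41 ± 0.20, adjusted p = 3.03e-07) and MMP1 2.47-fold lower (-1.30 ± 0.15, adjusted p = 7.48e-06). STR3 was 6.64-fold higher (2.73 ± 0.16, adjusted p = 1.38e-08), STR2 2.98-fold higher (1.58 ± 0.10, adjusted p = 2.08e-08) and MET22 2.85-fold higher (1.51 ± 0.08, adjusted p = 5.14e-09). MET16 was 2.63-fold higher (1.39 ± 0.20, adjusted p = 4.09e-05) and MET28 2.31-fold higher (1.21 ± 0.14, adjusted p = 5.48e-06). The reduction genes therefore did not move together between these strains, since 4 were higher in T210A and MET3 was lower (-0.77 ± 0.19, adjusted p = 0.00378), while MET14 and MET10 were not called. Under the replicate block CYS3 (-0.26) and MET6 (-0.32) passed as lower in T210A, with adjusted p of 0.0126 and 0.0451 against 0.105 and 0.0647 without it.

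**Figure D5:**
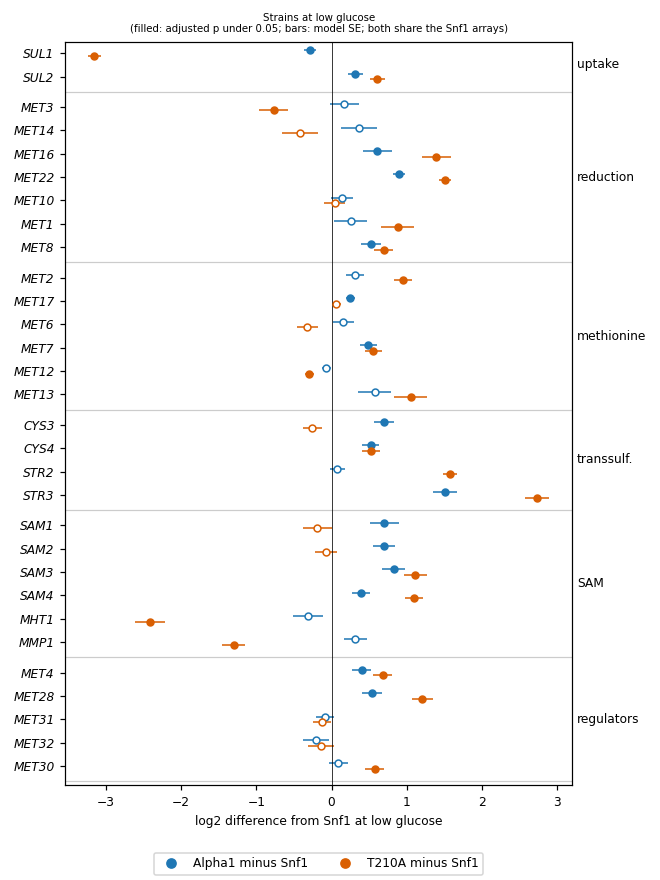
Log2 difference from Snf1 at low glucose (x axis) for each of the 30 genes (y axis, by role) in Alpha1 (blue) and T210A (orange), with the model SE as bars and filled points for genes called. The comparisons share the Snf1 arrays. T210A ranges from -3.15 for SUL1 to 2.73 for STR3, and Alpha1 from -0.32 for MHT1 to 1.51 for STR3.

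Between Alpha1 and Snf1 at low glucose, 15 of the 30 genes were higher in Alpha1 and 1, SUL1, was lower, against 30.0% of all genes called (17.0% higher, 12.9% lower). Without Alpha1 low glucose replicate 1 the split was 10 higher and 3 lower, with MHT1 and MET32 newly called lower. SUL2, MET16, SAM1, SAM4 and MET4 then lost the call. It was 15 higher and 0 lower without replicate 2, and 14 and 1 without replicate 3. STR3 was 2.85-fold higher in Alpha1 (1.51 ± 0.16, adjusted p = 1.17e-05), MET22 1.86-fold (0.90 ± 0.08, adjusted p = 2.69e-06) and SAM3 1.77-fold (0.83 ± 0.15, adjusted p = 0.00121). SAM2 was 1.62-fold higher (0.70 ± 0.15, adjusted p = 0.00299), and so was CYS3 (1.62-fold, 0.70 ± 0.13, adjusted p = 0.00109). Further calls were SAM1 (0.70 ± 0.19, adjusted p = 0.0137), MET16 (0.61 ± 0.20, adjusted p = 0.0312) and MET28 (0.54 ± 0.14, adjusted p = 0.00874). The SAM1 call ended without Alpha1 low glucose replicate 1 (0.052) or Snf1 low glucose replicate 1 (0.0537), adjusted p in parentheses. That of MET16 ended without Alpha1 low glucose replicate 1 (0.0992), Alpha1 low glucose replicate 3 (0.0682), Snf1 low glucose replicate 1 (0.0615), Snf1 low glucose replicate 2 (0.0755) or Snf1 low glucose replicate 3 (0.0806), and that of SUL1 (-0.29 ± 0.08, adjusted p = 0.0167) without Alpha1 low glucose replicate 2 (0.0761) or Snf1 low glucose replicate 2 (0.0569). When only these arrays were fitted 6 of the 30 genes were called, and of the genes named here SAM3 (adjusted p = 0.0933), MET28 (0.106), SAM1 (0.0653), MET16 (0.269) and SUL1 (0.102) lost the call. With array weights 9 were called, and MET28 (0.144) and SAM1 (0.0503) were not. With centred arrays MET16 was not called (0.0538).

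Set directly against each other at low glucose, Alpha1 and T210A differed in 21 of the 30 genes, 11 higher and 10 lower in Alpha1, against 41.5% of all genes called (20.8% higher, 20.8% lower). SUL1 was 7.3-fold higher in Alpha1 (2.87 ± 0.08, adjusted p = 5.49e-11), MHT1 4.27-fold higher (2.09 ± 0.20, adjusted p = 2.88e-06) and MMP1 3.07-fold higher (1.62 ± 0.15, adjusted p = 2.75e-06). STR2 was 2.83-fold lower (-1.50 ± 0.10, adjusted p = 1.09e-07) and STR3 2.33-fold lower (-1.22 ± 0.16, adjusted p = 4.9e-05). CYS3 (0.95 ± 0.13, adjusted p = 5.57e-05), MET3 (0.94 ± 0.19, adjusted p = 0.00158) and SAM1 (0.90 ± 0.19, adjusted p = 0.00218) were higher in Alpha1. When only these arrays were fitted the MET3 call ended (adjusted p = 0.0806). MET4 passed as lower in Alpha1 under the replicate block (-0.28, adjusted p = 0.0291, against 0.0999 without it).

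The differences between glucose responses were tested as interaction contrasts. T210A differed from Snf1 in 19 of the 30 genes, with 16 responses higher and 3 lower in T210A, against 39.5% of all genes called (21.2% higher, 18.3% lower). The largest were those of MHT1 (-2.39 ± 0.28, adjusted p = 2.23e-05), STR3 (2.38 ± 0.23, adjusted p = 3.88e-06), SUL1 (-2.33 ± 0.12, adjusted p = 1.13e-08), STR2 (1.72 ± 0.14, adjusted p = 9.32e-07) and MET22 (1.54 ± 0.11, adjusted p = 4.03e-07). 5 of the genes that fell in Snf1 rose in T210A, namely SUL2, MET22, MET2, STR3 and MET28, where 2.15% of all genes did so. SUL1 did the reverse, as did 1.71% of all genes. In all 3 strains 9 genes fell, namely MET3, MET14, MET10, MET1, MET8, MET7, SAM1, SAM3 and MET31, where 22.0% of all genes did so. Of these, MET3, MET14, MET10 and MET7 lost the Alpha1 call when only the Alpha1 arrays were fitted. Leaving out some single arrays ended the call of MET14 in Alpha1 and those of MET1 and MET7 in T210A. Alpha1 differed from Snf1 in 7 genes, 6 higher and 1 lower, against 13.7% of all genes called (9.32% higher, 4.37% lower). These included STR3 (1.17 ± 0.23, adjusted p = 0.0037), MET22 (0.89 ± 0.11, adjusted p = 0.00018), SAM2 (0.77 ± 0.21, adjusted p = 0.0256), CYS3 (0.73 ± 0.18, adjusted p = 0.0164) and MET8 (0.69 ± 0.18, adjusted p = 0.0222). No gene that fell in Snf1 rose in Alpha1. The SAM2 call ended without Alpha1 low glucose replicate 2 (0.0604), Snf1 high glucose replicate 2 (0.0619), Snf1 high glucose replicate 3 (0.0555) or Snf1 low glucose replicate 1 (0.0644), and that of MET8 without Snf1 high glucose replicate 2 (0.0503), Snf1 high glucose replicate 3 (0.0534) or Snf1 low glucose replicate 1 (0.0549), adjusted p in parentheses. Without Snf1 high glucose replicate 3 or Snf1 low glucose replicate 1 the count was 3 genes, and when only these arrays were fitted it was 2, with CYS3 (0.0557), MET8 (0.0636) and SAM2 (0.0699) among the calls lost, adjusted p in parentheses. With array weights SAM2 was not called (adjusted p = 0.117).

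Alpha1 and T210A responded differently in 16 of the 30 genes, 7 higher and 9 lower in Alpha1, against 20.3% of all genes called (10.9% higher, 9.41% lower). The responses of MHT1 (2.30 ± 0.28, adjusted p = 7.82e-05), SUL1 (1.92 ± 0.12, adjusted p = 4.46e-07) and MMP1 (1.41 ± 0.22, adjusted p = 0.000487) were higher in Alpha1. Those of STR2 (-1.62 ± 0.14, adjusted p = 4.44e-06) and STR3 (-1.22 ± 0.23, adjusted p = 0.00207) were lower. The count was 10 without T210A low glucose replicate 3, and also 10 when only these arrays were fitted. The 3 differences of responses share arrays and are not independent of each other.

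Of 27 other genes of sulfur metabolism listed by role, 26 were measured. At low against high glucose 6 rose and 12 fell in Snf1, 9 and 8 in Alpha1, and 11 and 11 in T210A. The shares called were 69.2%, 65.4% and 84.6%, beside 67.3%, 63.5% and 70.5% of all genes. The sulfonate dioxygenase gene JLP1 of this list had group means under 3.25 in all groups except T210A at low glucose, so no fold is given for it. MUP1, for the main methionine permease, fell in every strain, 6.71-fold in Snf1 (-2.75 ± 0.21, adjusted p = 4.02e-08), 4.38-fold in Alpha1 (-2.13 ± 0.21, adjusted p = 8.59e-07) and 8.67-fold in T210A (-3.12 ± 0.21, adjusted p = 1.88e-08). MEU1, which begins methionine salvage, fell 3.04-fold, 2.67-fold and 3.83-fold in the same order. The sulfite pump gene SSU1 read 7.12, 7.56 and 7.12 in T210A at high glucose and 11.16, 11.31 and 11.09 at low glucose, a rise of 15.1-fold (3.92 ± 0.22, adjusted p = 4.69e-09), and it rose 1.66-fold in Snf1 (0.74 ± 0.22, adjusted p = 0.0101) and 2.02-fold in Alpha1 (1.02 ± 0.22, adjusted p = 0.00127). YCT1, for a cysteine transporter, rose 2.83-fold in Snf1, 1.91-fold in Alpha1 and 3.89-fold in T210A, the Alpha1 call ending when only its own arrays were fitted (adjusted p = 0.079). The salvage gene UTR4 rose 2.43-fold in Snf1 (1.28 ± 0.14, adjusted p = 2.36e-06), 1.86-fold in Alpha1 and 1.55-fold in T210A. Between T210A and Snf1 at low glucose 14 of the 26 were called, 7 higher and 7 lower in T210A (53.8%, beside 56.3% of all genes). Between Alpha1 and Snf1 10 were higher and 2 lower (46.2%, beside 30.0%). The largest difference between T210A and Snf1 was that of SSU1, with means of 11.19 and 8.37. At low glucose HOM3, for the aspartate kinase that begins homoserine synthesis, was 5.12-fold higher in T210A than in Snf1 (2.36 ± 0.14, adjusted p = 1.24e-08) and 2.59-fold higher in Alpha1 (1.37 ± 0.14, adjusted p = 7.26e-06). BDS1, for a sulfatase, was 4.46-fold higher in T210A (2.16 ± 0.22, adjusted p = 2.13e-06) and 2.24-fold higher in Alpha1 (1.16 ± 0.22, adjusted p = 0.00136, and 0.0743 when only these arrays were fitted). SAH1, for S-adenosylhomocysteine hydrolase, was 1.92-fold higher in Alpha1 than in Snf1 (0.94 ± 0.17, adjusted p = 0.00103). At high glucose MUP3, a methionine permease gene on chromosome VIII, was the one gene of this list called in T210A against Snf1, by 0.82 ± 0.12, beside a median of 0.74 over the genes of that chromosome.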

How the data were processed

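Total RNA of 18 yeast cultures was hybridized to Affymetrix arrays. The authors deposited a log2 signal for each probe set, made with RMA and the affy package, per the submitters' processing notes, with versions and settings not given in the sources used here. RMA summarises the probes of a set and evens out the arrays, so large changes tend to be understated. Of 5716 probe sets, 5498 had 1 gene in the platform annotation, 218 had none, and 12 symbols were updated to the RefSeq R64 annotation. Where a gene had more than 1 probe set (47 genes), that of highest mean over the 18 arrays was used, which left 5449 genes. No further scaling was done. A model of 6 group means was fitted over all 18 arrays with limma 3.58.1 in R 4.3.3 (12 residual and 1.182 prior degrees of freedom), its moderated test was two-sided, and p was adjusted by Benjamini-Hochberg over the 5449 genes in each of 12 comparisons (9 between groups, 3 between responses). The fit was also run on simulated data in which a gene had the same spread in every group. That run does not bear on the wider spread of Alpha1 at low glucose. The 30 genes and the lists were chosen with earlier results of these data known. All 30 could be named, with up to 8 called genes in a comparison of groups and 5 in one of responses by size of difference, and up to 4 of the other sulfur genes. The labels call the arrays of a group biological replicates and do not say more on how their cultures relate. Each p-value rests on 1 estimate of spread per gene, shared by the 6 groups. It therefore does not follow the wider spread of Alpha1 at low glucose. Replicate numbers were taken as pairs where all 3 same-numbered arrays deviated together (correlation of deviations from the group means over 0.1), which held for Snf1 low and high (lowest r = 0.201), Alpha1 low and high (0.112), T210A and Snf1 at high (0.377) and low (0.239) and Alpha1 and T210A at low glucose (0.129). It did not hold for T210A low and high (0.04) or for Alpha1 and Snf1 at high (0.037) and low (0.096). Nor did it hold for Alpha1 and T210A at high glucose (-0.238). The block was fitted for all 12 comparisons regardless. The alternatives were other normalizations, priors, array weights, gene filters, a minimum fold, the block, and leaving out arrays. Those for the other sulfur genes were added after seeing the data.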

Additional observations from a re-analysis of the deposited data

Results flagged for a closer look

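The glucose responses of these genes were singled out where the test of the difference between strains itself passed, with up to 5 genes a comparison by the size of the difference (named of 7, 19 and 16 called). Each value is the log2 difference between responses to low against high glucose. For Alpha1 minus Snf1 the values were STR3 1.17, MET22 0.89, SAM2 0.77, CYS3 0.73, MET8 0.69. Those for T210A minus Snf1 were MHT1 -2.39, STR3 2.38, SUL1 -2.33, STR2 1.72, MET22 1.54. For Alpha1 minus T210A they were MHT1 2.30, SUL1 1.92, STR2 -1.62, MMP1 1.41, STR3 -1.22. STR3 was named in all 3 comparisons, with T210A responding highest and Snf1 lowest. No outlier test was run on groups of 3 arrays, but each array was left out in turn. Replicate 1 of Alpha1 at low glucose was the highest of its group in all 7 reduction genes.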

How the results depend on the processing

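No difference of the 30 genes that was called changed sign under any alternative run. Settings that moved a count of genes called by over 1.5 times were these. When a fold of at least 1.5 was required in the test, the counts were 11 for Snf1 low against high glucose, 3 for Alpha1 low against high glucose, 9 for T210A low against high glucose, 0 for T210A against Snf1 at high glucose, 0 for Alpha1 against T210A at high glucose, 2 for Alpha1 against Snf1 at low glucose, 11 for T210A against Snf1 at low glucose, 5 for Alpha1 against T210A at low glucose, 0 for the Alpha1 minus Snf1 responses, 8 for the T210A minus Snf1 responses and 4 for the Alpha1 minus T210A responses, against 20, 15, 24, 1, 1, 16, 21, 21, 7, 19 and 16. With only the compared arrays fitted they were 9 for Alpha1 low against high glucose, 2 for Alpha1 against T210A at high glucose, 6 for Alpha1 against Snf1 at low glucose, 2 for the Alpha1 minus Snf1 responses and 10 for the Alpha1 minus T210A responses. Array weights gave 1 for Alpha1 against Snf1 at high glucose, 3 for T210A against Snf1 at high glucose, 4 for Alpha1 against T210A at high glucose and 9 for Alpha1 against Snf1 at low glucose. Leaving out each array in turn gave 3 to 9 for the Alpha1 minus Snf1 responses and 10 to 16 for the Alpha1 minus T210A responses. The fold requirement sets a higher bar, and leaving out an array leaves fewer samples. Fitting only the compared arrays also leaves fewer samples. The counts that fell in that fit were those of comparisons with Alpha1 at low glucose. In that fit the count went from 20 to 21 for Snf1 low against high glucose and stayed at 24 for T210A. For T210A against Snf1 at low glucose it went from 21 to 23. The cause of the shifts with array weights or with only the compared arrays was not tested. With the replicate number as a block the counts were 21 for Snf1 low against high glucose, 19 for Alpha1 low against high glucose, 24 for T210A low against high glucose, 0 for Alpha1 against Snf1 at high glucose, 1 for T210A against Snf1 at high glucose, 1 for Alpha1 against T210A at high glucose, 17 for Alpha1 against Snf1 at low glucose, 23 for T210A against Snf1 at low glucose, 22 for Alpha1 against T210A at low glucose, 10 for the Alpha1 minus Snf1 responses, 21 for the T210A minus Snf1 responses and 20 for the Alpha1 minus T210A responses. The pairing held for 8 of 15 pairs of groups, and the block ended 0 of the calls. Quantile normalization, centring, the trend and robust prior and a filter on dim genes kept each count within 1.5 times. The mean of probe sets and leaving out chromosome VIII did so too. All 30 genes had 1 probe set and 0 lie on that chromosome, so these runs left their values unchanged. They could alter only the shared prior and the adjustment, and so do not test the values of the 30 genes. The 3 arrays a group limit the precision.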

Other observations

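Neighbouring genes of this pathway in the RefSeq R64 annotation were alike in some strains and not in others. MHT1 and MMP1, adjacent on chromosome XII, both fell in T210A (-2.44 ± 0.20 and -1.71 ± 0.15), while in Snf1 MMP1 was called lower (-0.50 ± 0.15) and MHT1 was not called (-0.05 ± 0.20). YCT1, with 5 genes between it and MHT1, rose in T210A (1.96 ± 0.24). SAM3 and SAM4, adjacent on chromosome XVI, both fell in Snf1 (-1.83 ± 0.15 and -1.32 ± 0.12) and in Alpha1 (-1.33 ± 0.15 and -0.93 ± 0.12). In T210A SAM3 fell (-0.59 ± 0.15) and SAM4 was not called (-0.21 ± 0.12, adjusted p = 0.125).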
